A study of Mus musculus with 12 samples.

Results

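Levels of 6 long noncoding RNAs were followed in adult mouse liver: C730036E19Rik, Neat1, Malat1, Gas5, Snhg1 and Snhg12, which are 6 of the 24527 gene symbols in the count table. C730036E19Rik was chosen by its measured difference in counts between females conceived in vitro and females conceived naturally. The other 5 were listed with it as abundant long noncoding RNAs, although Snhg1 and Snhg12 rank in the lower part of the tested genes. All 6 were among the 13204 genes that passed a filter on low counts. The study measured poly-A RNA of the liver at 39 weeks of age in 12 mice, 3 in each of 4 groups. All 4 groups came from CF1 females crossed to B6SJL males: females and males conceived by in vitro fertilization (IVF) with a Jackson Laboratory protocol, and females and males conceived by natural mating. Offspring of an outbred stock crossed to hybrid males are not genetically identical, so animals of 1 group differ in genotype. The title of the series names sex-specific effects of IVF on adult metabolism as its subject, and the comparisons here are IVF against natural conception within each sex and male against female within each mode of conception.

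Long noncoding RNAs act as RNA, without being translated. Malat1 lies in nuclear speckles, the domains where splicing factors gather. Neat1 is the scaffold of paraspeckles, nuclear bodies that form around its long form and hold back certain RNAs and RNA-binding proteins. Gas5, Snhg1 and Snhg12 are small nucleolar RNA (snoRNA) host genes: their introns carry the snoRNAs that guide chemical modification of ribosomal and other RNAs, and their spliced exons are largely degraded by nonsense-mediated decay when translation runs. C730036E19Rik is annotated as an intergenic noncoding RNA.

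The sequences at the starts of the host genes and at the ends of Neat1 and Malat1 are given for features known of each class. The starts of Neat1 and Malat1 were not examined, so the classes are not compared by their starts. Host genes of this kind often start in a run of pyrimidines, the feature they share with ribosomal protein genes. The 4 promoters below come from RefSeq on GRCm38.p6, plus strand, from 250 bases before to 50 bases from the annotated start, and are placed at chr1:161034916-161035215 (Gas5), chr19:8723237-8723536 (Snhg1), chr4:132308428-132308727 (Snhg12) and chr1:151137784-151138083 (C730036E19Rik). Capitals mark TATA, extended by TA where it repeats, between 40 and 20 bases before the start, and the unbroken pyrimidine run that covers the start base. RefSeq gave 2 starts for Gas5, and the one with both features is shown.
Gas5: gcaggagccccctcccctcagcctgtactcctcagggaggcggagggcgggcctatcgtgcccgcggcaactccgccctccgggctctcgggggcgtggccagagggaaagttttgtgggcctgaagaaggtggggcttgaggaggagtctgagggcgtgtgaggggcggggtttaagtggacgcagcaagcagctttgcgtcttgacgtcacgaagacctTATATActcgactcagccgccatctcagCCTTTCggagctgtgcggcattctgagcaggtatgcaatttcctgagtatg
Snhg1: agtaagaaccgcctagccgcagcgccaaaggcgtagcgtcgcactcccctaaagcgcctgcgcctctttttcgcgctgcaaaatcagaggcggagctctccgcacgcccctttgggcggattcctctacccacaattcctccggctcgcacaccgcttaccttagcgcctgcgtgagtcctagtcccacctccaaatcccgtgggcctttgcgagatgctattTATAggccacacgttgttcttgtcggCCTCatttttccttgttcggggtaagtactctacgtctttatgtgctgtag
Snhg12: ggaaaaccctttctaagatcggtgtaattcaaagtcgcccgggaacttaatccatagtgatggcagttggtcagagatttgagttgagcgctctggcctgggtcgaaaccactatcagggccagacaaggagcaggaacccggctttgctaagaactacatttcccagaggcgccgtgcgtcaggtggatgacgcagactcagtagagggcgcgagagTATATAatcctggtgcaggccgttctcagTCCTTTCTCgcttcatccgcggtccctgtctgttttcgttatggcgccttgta
C730036E19Rik: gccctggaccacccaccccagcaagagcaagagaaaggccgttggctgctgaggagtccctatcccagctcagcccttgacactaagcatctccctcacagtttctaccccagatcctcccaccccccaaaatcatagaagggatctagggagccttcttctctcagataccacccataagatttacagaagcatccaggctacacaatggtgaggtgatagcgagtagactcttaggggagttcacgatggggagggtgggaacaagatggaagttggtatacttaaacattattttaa
At the starts shown, all 3 host genes held both features, with pyrimidine runs of 6 bases in Gas5, 4 in Snhg1 and 9 in Snhg12. C730036E19Rik held neither. The Gas5 start was picked for holding both, so its match was fixed by that choice. Among 32851 RefSeq mouse promoters of the same length, 5.49% had TATA on the plus strand of the gene in that window, 13.97% had a run of at least 4 pyrimidines over the start and 0.734% had both. These matches describe the letters and do not show that a factor binds there.

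Neat1 and Malat1 are known for ends that are cut by RNase P rather than cleaved and polyadenylated, with an A-rich stretch encoded in the genome. The 3 stretches of 60 bases below, read 5′ to 3′ from GENCODE M21 transcripts on the minus strand of chromosome 19, bear on how both can be captured in a poly-A library. Capitals mark the A-rich stretch in the long form Neat1, which ends there, and in Malat1, where the annotated transcript runs on for another 292 bases. In the short form of Neat1 they mark the polyadenylation hexamer.
Neat1 long form: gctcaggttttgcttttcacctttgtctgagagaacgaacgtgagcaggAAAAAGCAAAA
Malat1: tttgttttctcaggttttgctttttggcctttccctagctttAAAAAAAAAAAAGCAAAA
Neat1 short form: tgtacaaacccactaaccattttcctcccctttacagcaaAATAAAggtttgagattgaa
The long form ends in an encoded run of A, whereas the short form of 3004 bases has a hexamer 14 bases before its end. Both forms share their start, so the count of Neat1 does not separate them.

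By annotation on GRCm38, the sequence underlying mm10, C730036E19Rik lies at chr1:151138034-151142345 on the plus strand and has 1 transcript of 1102 bases. Neat1 lies at chr19:5824708-5845478 and Malat1 at chr19:5795690-5802672, both on the minus strand and 22036 bases apart. Gas5 lies at chr1:161034422-161038539, Snhg1 at chr19:8723475-8726443 and Snhg12 at chr4:132308623-132311024, all on the plus strand, with 9, 8 and 4 annotated snoRNAs inside them. Gas5 overlaps the antisense gene Zbtb37, a zinc finger gene, by 427 bases. The annotation used for counting, and whether reads were counted by strand, are not given in the sources used here. Whether the count of Gas5 holds reads from that overlap is therefore not known.

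Library totals ran from 6826534 counts (IVF female 1) to 27832271 (natural male 3), and the second smallest total was 8056230 (natural female 2). Numbers of libraries only name them. Those 2 libraries also stood apart in base composition: the median log2 deviation of the fifth of genes with the lowest GC content minus that of the fifth with the highest was 0.72 in each, against -0.37 to 0.10 in the other 10. The ribosomal transcript Rn45s took between 0.19% and 3.76% of the counts. Hepatocyte markers summed to between 81817 and 121541 CPM, the counts scaled to a common library total, and all 8 were detected. Red cell markers summed to 7.28 to 50.1 CPM in females and 21.4 to 182 CPM in males, with Hba-a2, Hbb-bs and Hbb-bt at 0, and pancreas markers to 10.1 to 40.2 CPM, with Cela3b and Prss2 at 0. Sample titles carry an animal code, and IVF female 1 and IVF male 2 share its first number, whose meaning the labels do not give. Nothing further is said of litters, so p-values measure the spread between these samples. In bulk liver, fewer cells of a type and less RNA per cell cannot be told apart.

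Levels are given as CPM scaled by edgeR's trimmed mean of M-values (TMM). Malat1 was the most abundant of the 6, with a mean over the 12 libraries of 536 CPM, 216th of the 13204 genes. Neat1 followed at 106 CPM (1221st), then Gas5 at 53.9 (2422nd), C730036E19Rik at 15.2 (6078th), Snhg1 at 5.45 (8884th) and Snhg12 at 4.37 (9383rd). Per kilobase of merged annotated exons, Malat1 stood at 76.7 CPM, Gas5 at 14.3, C730036E19Rik at 13.8, Neat1 at 5.09, Snhg1 at 1.83 and Snhg12 at 1.82. The order therefore depends on length: Neat1 fell below C730036E19Rik when its full 20771 bases were used, but stood at 35.2 CPM per kilobase of the short form. Gas5 was at 81.0 CPM per kilobase of its longest spliced transcript of 665 bases. The 6 RNAs together held between 0.0392% (IVF male 1) and 0.123% (natural female 2) of all counts in a library, and Malat1 made up 63.7% to 84.3% of that share.

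**Figure D1:**
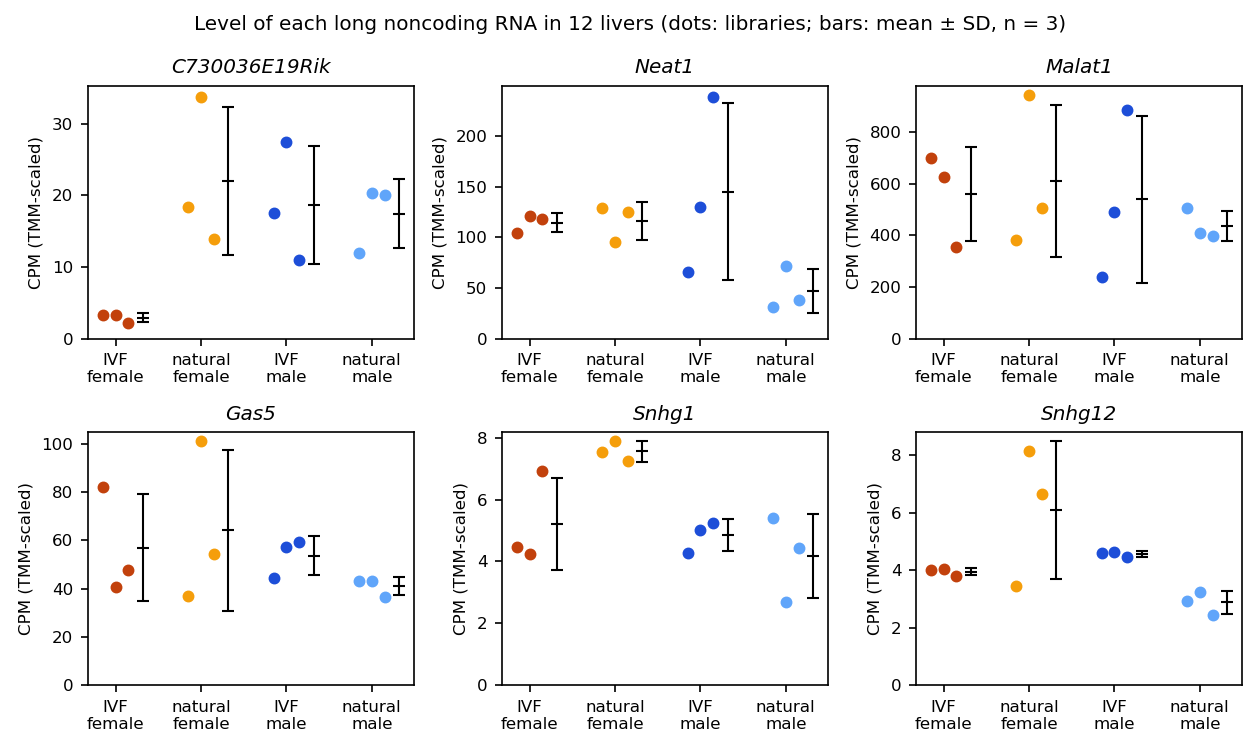
Each panel plots 1 RNA in the 12 livers, with TMM-scaled CPM on a linear axis from 0, dots for libraries 1 to 3 of each group from left to right, and a black bar for the group's mean ± SD. The 3 IVF females stand at 2.22 to 3.28 CPM for C730036E19Rik, below the other 9 livers, and for Neat1 the natural males lie between 30.7 and 71.5 CPM.

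C730036E19Rik was low in all 3 IVF females and in no other liver. Its levels were 3.27, 3.28 and 2.22 CPM in IVF females 1 to 3, from 22, 79 and 52 counts. Natural females had 18.4, 33.7 and 13.9 CPM, IVF males 17.5, 27.4 and 11.01 CPM, and natural males 11.9, 20.4 and 20.001 CPM. All 9 other livers lay above all 3 IVF females, and those 9 overlapped across their 3 groups. The means were 2.92 ± 0.61 CPM in IVF females, 21.98 ± 10.4 in natural females, 18.6 ± 8.26 in IVF males and 17.4 ± 4.77 in natural males (SD, n = 3 each). The fitted log2 difference between IVF and natural females was -2.92 ± 0.43 (SE), a level of 0.133 times that of natural females. This contrast chose the gene, so the value is a description, as are the log2 differences of 2.69 between IVF males and IVF females and of 3.01 between the IVF effects of the 2 sexes, which use the same libraries. With the 2 smallest libraries left out, the difference in females was -2.53. No gene passed an adjusted p of 0.05 in this comparison by edgeR (0% called), DESeq2 called 4 genes, and 7.42% of all genes had female groups that did not overlap.

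Males gave the comparison of C730036E19Rik that its choice did not use. IVF and natural males differed by a log2 fold change of 0.10 ± 0.38 (SE), with a 95% interval from -0.74 to 0.93 (adjusted p = 1, edgeR's quasi-likelihood test with Benjamini-Hochberg adjustment). The male groups overlapped. The nearest tested genes were far away: Hmcn1, an extracellular matrix gene, lay 144599 bases before it and Ivns1abp, an actin-associated kelch protein gene, 202132 bases after it. In females their log2 differences with IVF were 0.29 ± 0.28 and -0.10 ± 0.18 (SE), and neither passed the test.

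The genes whose pattern over the 12 libraries was most like that of C730036E19Rik were Asb13 and Tsc22d1 (each with Pearson's r of 0.85 in log2 CPM) and Gfod1 (r = 0.82). These values describe 12 libraries that share their groups, and were picked as the highest of all genes. For deviations from group means, r was 0.47 for Asb13, 0.65 for Tsc22d1 and 0.75 for Gfod1. Tsc22d1, a leucine zipper transcription regulator, averaged 24.6 CPM in IVF females, 54.9 in natural females, 92.7 in IVF males and 62.9 in natural males. Asb13 was flatter, from 33.2 CPM in IVF females to between 43.0 and 44.4 in the other groups. None of the 5 other noncoding RNAs followed C730036E19Rik: r ran from -0.22 with Neat1 to 0.20 with Snhg12.

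Neat1, the paraspeckle scaffold, was even among females and lower in natural males. IVF females had 104, 121 and 118 CPM and natural females 129, 94.9 and 125 CPM. IVF males spread most, at 65.9, 130 and 239 CPM, while natural males had 30.7, 71.5 and 37.9 CPM. All 3 natural males lay below all 6 females, and IVF male 1 fell below natural male 2, so the male groups overlapped. Natural males also had the 3 largest totals and Rn45s shares of 2.27% to 3.76%, against 0.19% to 3.03% in the other 9 livers. Over the 12 libraries r with the Rn45s share was -0.62 for Neat1, -0.61 for Malat1 and Snhg12, -0.80 for Gas5, -0.23 for Snhg1 and 0.28 for C730036E19Rik, and the part of Rn45s or depth in these levels was not tested. The female comparison gave a log2 fold change of -0.02 ± 0.41 (SE). In males Neat1 was 3.11 times as high with IVF, a log2 fold change of 1.64 ± 0.42 (95% interval 0.72 to 2.55), 12th of all genes by unadjusted p (0.00219), but it did not pass the edgeR test over all genes (adjusted p = 1). The difference between the 2 IVF effects was 1.66 ± 0.58 (unadjusted p = 0.0148, adjusted p = 1, edgeR). Leaving out 1 library at a time moved the male value between 1.07 and 2.08.

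Between the sexes, natural males had 0.401 times the Neat1 of natural females, a log2 fold change of -1.32 ± 0.42 (adjusted p = 0.158, edgeR). The value passed the threshold when libraries were scaled by total counts alone (-1.65, adjusted p = 0.0433, edgeR), a scaling that put the median of all genes at -0.34 in this comparison, and with DESeq2 (-1.31, adjusted p = 0.0466), and over all alternatives its adjusted p ran from 0.0433 to 0.434. IVF males and IVF females differed by 0.34 ± 0.41, with overlapping groups. Golga2, which encodes a Golgi matrix protein, was the gene most like Neat1 (r = 0.91), followed by Wdr5b and Cntrob (each 0.87). Golga2 averaged 40.6 CPM in natural males and 46.9 to 50.3 CPM in the other groups. Frmd8, 4224 bases from the end of the Neat1 locus, had log2 fold changes with IVF of -0.03 in females and -0.24 in males, and neither passed the test.

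Malat1, the speckle RNA beside Neat1, showed no difference between groups that exceeded its spread. IVF females had 700, 626 and 354 CPM, natural females 380, 941 and 505, IVF males 240, 492 and 884, and natural males 504, 408 and 397. Natural males were the most even group, and every pair of groups compared overlapped. The within-group SD of log2 CPM was 0.64, larger than that of 82.5% of tested genes, against a median of 0.38 over all tested genes. The log2 fold change with IVF was -0.12 ± 0.45 in females (95% interval -1.11 to 0.87) and 0.30 ± 0.45 in males (-0.68 to 1.29), both with adjusted p = 1 by edgeR. Natural males differed from natural females by -0.48 ± 0.45 and IVF males from IVF females by -0.06 ± 0.45. Ptbp2, a splicing regulator, had the pattern most like it (r = 0.96), followed by Ash1l, a histone methyltransferase (0.93), and Zfp955a (0.92).

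The ratio of Neat1 to Malat1, neighbours of one genomic strand, needs no scaling between libraries. In IVF males the ratio of counts was 0.275, 0.265 and 0.270, nearly the same in 3 livers whose Malat1 levels spread widely. Natural males had 0.0610, 0.175 and 0.0954, all lower. Natural females had 0.340, 0.101 and 0.248 and IVF females 0.148, 0.194 and 0.334, so each female group spanned the IVF males. The lowest ratio of each female group, 0.101 and 0.148, came from the 2 smallest libraries, which stood apart in base composition. Over the 12 libraries r with the base-composition measure was 0.74 for Malat1 and 0.19 for Neat1. The part of base composition in the ratio was not tested. The male groups differed by 1.42 on the log2 scale (-1.89 ± 0.03 against -3.31 ± 0.76, SD, n = 3; two-sided exact permutation p = 0.1, the smallest that 3 against 3 allows, and 0.8 after Benjamini-Hochberg adjustment over 16 ratio comparisons). The female difference was 0.06 (exact permutation p = 1).

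**Figure D2:**
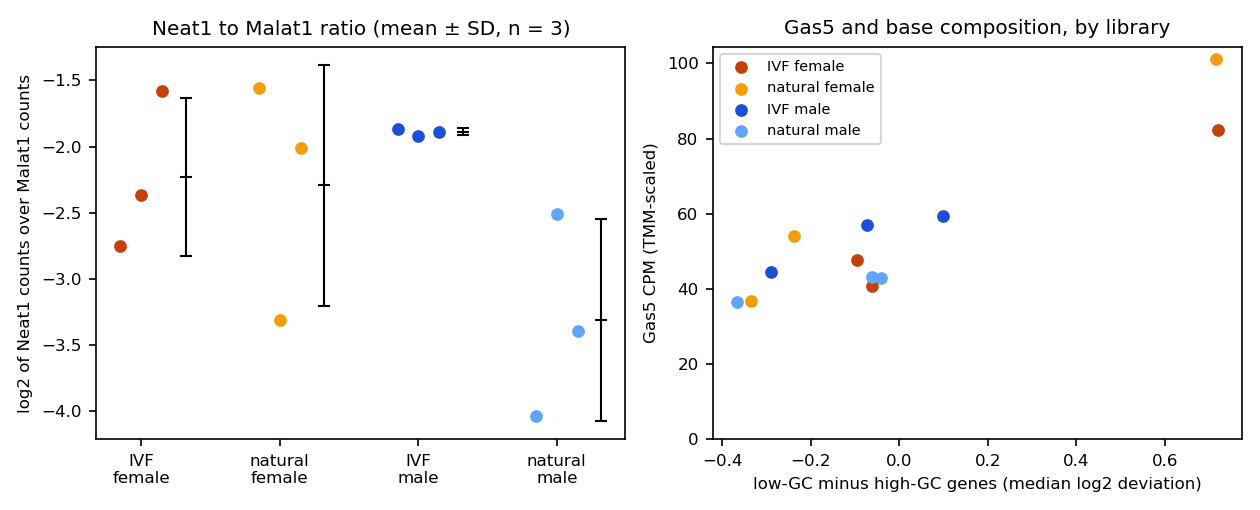
At left, the log2 ratio of Neat1 to Malat1 counts is plotted for each library by group, with black bars for the mean ± SD (n = 3): IVF males cluster at -1.89 and natural males lie between -4.03 and -2.51. At right, Gas5 in TMM-scaled CPM is plotted against the base-composition index of the library, and the 2 libraries at 0.72 have the 2 highest Gas5 levels, 82.2 and 101 CPM.

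Gas5, the most abundant of the 3 host genes, moved with the base composition of the library. IVF females had 82.2, 40.8 and 47.7 CPM, natural females 36.8, 101 and 54.2, IVF males 44.6, 57.1 and 59.3, and natural males 42.9, 43.1 and 36.6. The 2 highest values were in the 2 smallest libraries, 1 in each female group. Over the 12 libraries Pearson's r between log2 Gas5 and the composition index was 0.91 (0.60 without those 2 libraries), against 0.74 for Malat1, 0.46 for Snhg12, 0.19 for Neat1, 0.11 for Snhg1 and -0.15 for C730036E19Rik. These are descriptions over libraries that differ in depth as well: for Gas5, r with log2 total counts was -0.85. The part of base composition or depth in the level of Gas5 was not tested.

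IVF and natural males did not overlap for Gas5, though only just, with the lowest IVF male at 44.6 and the highest natural male at 43.1 CPM. Its log2 fold change was 0.39 ± 0.35 in males and -0.17 ± 0.35 in females (SE; adjusted p = 1 for both, edgeR). Natural males differed from natural females by -0.64 ± 0.35 (adjusted p = 0.417, edgeR). Genes most like Gas5 were Rpl14-ps1 (r = 0.98), a ribosomal protein pseudogene whose reads could come from its parent gene, Pnisr, a splicing-related serine-rich protein gene (0.97), and Taf1d (0.97), a factor of RNA polymerase I.

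Snhg1 was highest in natural females. They had 7.54, 7.91 and 7.24 CPM, while IVF females had 4.45, 4.24 and 6.92, IVF males 4.26, 5.02 and 5.25, and natural males 5.39, 2.70 and 4.43. All 3 natural females were above each of the 9 other livers. The log2 fold change with IVF was -0.53 ± 0.28 in females (95% interval -1.14 to 0.08, unadjusted p = 0.0846, adjusted p = 1, edgeR) and 0.22 ± 0.28 in males. Natural males had 0.553 times the level of natural females, a log2 fold change of -0.85 ± 0.28 (adjusted p = 0.173, edgeR), and this passed only with scaling by total counts among the alternatives (-1.16, adjusted p = 0.0488, edgeR), where the median of all genes was -0.34. Over the alternatives its adjusted p ran to 0.372. IVF males and IVF females overlapped and differed by -0.11 ± 0.28.

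Slc3a2, which encodes the heavy chain of amino acid transporters, is read in the opposite direction from a start 106 bases away from that of Snhg1. Its r with Snhg1 over the 12 libraries was 0.65. Natural males were lower in Slc3a2 by a log2 value of -0.56 ± 0.20 (adjusted p = 0.211, edgeR), and its log2 fold changes with IVF were -0.16 in females and 0.12 in males. Wdr74, a ribosome assembly gene on the other side, had r = -0.38. Wipf2 (0.84), Cdkn2aip (0.83) and Taf4 (0.83) were most like Snhg1 over all genes.

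Snhg12 was lowest in natural males and nearly level within both IVF groups. IVF females had 4.01, 4.03 and 3.80 CPM, natural females 3.45, 8.15 and 6.66, IVF males 4.60, 4.62 and 4.45, and natural males 2.92, 3.25 and 2.45. Natural males lay below all 9 other livers, whereas natural females held both the highest values and, in library 1, a value below every IVF animal. Over the 12 libraries r was -0.66 with log2 total counts and -0.61 with the Rn45s share, both high in natural males. The log2 fold change with IVF was -0.61 ± 0.29 in females (unadjusted p = 0.0576) and 0.67 ± 0.29 in males (unadjusted p = 0.0384), and both had adjusted p = 1 by edgeR. The 2 effects differed by 1.27 ± 0.41 (95% interval 0.39 to 2.16, unadjusted p = 0.00881, adjusted p = 1, edgeR). Natural males had 0.478 times the level of natural females, a log2 fold change of -1.06 ± 0.29 (adjusted p = 0.0978, edgeR). That value passed with scaling by total counts (adjusted p = 0.0293, edgeR), with DESeq2 (adjusted p = 0.0296) and without natural female 1 (-1.36, adjusted p = 0.0149, edgeR), and ran up to 0.324 over the alternatives.

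Snhg12 rests on few counts, between 27 and 115 in a library. Its nearest tested genes, Taf12 (12857 bases before) and Trnau1ap (739 bases after), had log2 fold changes with IVF between -0.03 and 0.05 in both sexes. A430033K04Rik, AI507597 and Zfp770 were most like it, with r of 0.89, 0.87 and 0.86. Of the snoRNAs inside the 3 host genes, 6 had a row in the count table under their annotated name. Those 6 held from 11 (Snord99) to 34 (Snord22) counts over all 12 poly-A libraries. The others had no row under a matching name, so the data carry no usable measure of the snoRNAs themselves.

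**Figure D3:**
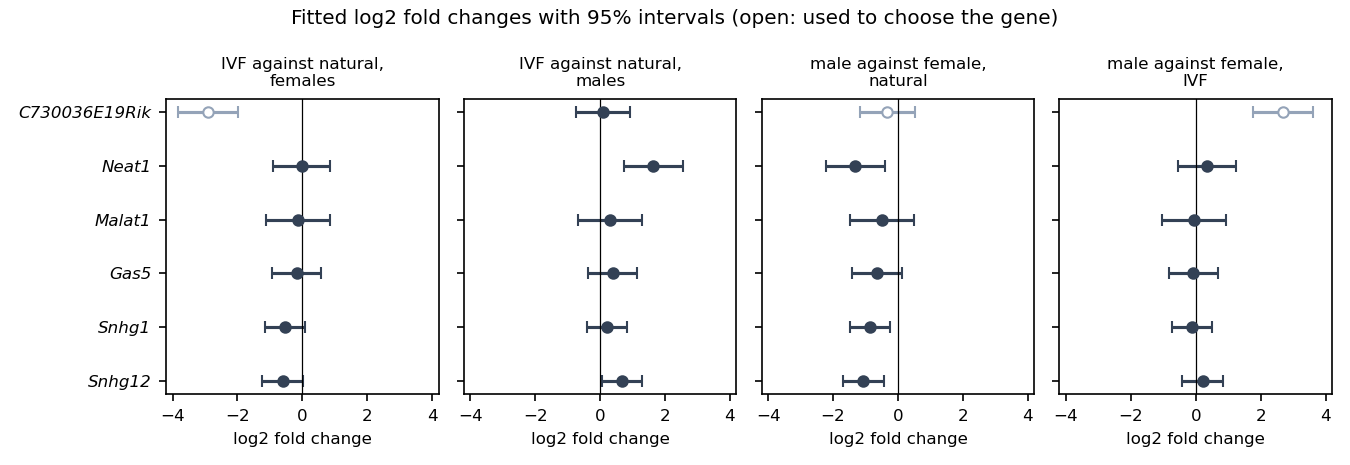
Points are edgeR log2 fold changes of each RNA in 4 comparisons and bars are 95% intervals, with open symbols where the comparison shares libraries with the one that chose C730036E19Rik. All 5 other RNAs lie below 0 for natural males against natural females, and those of Neat1, Snhg1 and Snhg12 have intervals that exclude 0 before adjustment.

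Counted over the 5 RNAs other than C730036E19Rik, none was called in any comparison at an adjusted p of 0.05 by edgeR. Over all genes 0% were called for IVF against natural females, 0.00757% for males, 0% for the difference between the 2 effects, 1.77% for natural males against natural females and 2.19% for IVF males against IVF females. At an unadjusted p under 0.05 the counts were 0 of 5 in females (3.7% of all genes), 2 of 5 in males (2.69%), 2 of 5 for the difference (3.87%), 3 of 5 between natural sexes (14.9%) and 0 of 5 between IVF sexes (14.9%). DESeq2 called 2 of the 5, Neat1 and Snhg12, between natural sexes, where it called 649 of 18940 genes, and none of the 5 elsewhere.

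Groups did not overlap for 1 of the 5 in the female comparison (Snhg1, against 7.42% of all genes) and for 2 of the 5 in males (Gas5 and Snhg12, where 8.91% of all genes did not overlap). Between natural sexes it was 3 of 5 (Neat1, Snhg1 and Snhg12, against 20% of all genes), and between IVF sexes 1 of 5 (Snhg12, against 21.8%). By sign alone, all 5 fitted values were below 0 with IVF in females, above 0 with IVF in males and below 0 in natural males against natural females. These comparisons share the natural groups, so the signs are not separate observations. Sums of markers of some cell types also differed between the sexes in CPM of the library total, without the TMM scaling used for the 6 RNAs. TMM factors were 0.85 to 0.91 in natural males and 1.04 to 1.21 in natural females. They were 0.92 to 1.04 in IVF males and 0.99 to 1.10 in IVF females. Levels are divided by these factors, so TMM scaling would narrow the gaps given here, most of all in natural animals. Among 8 macrophage markers, 3 were called between IVF males and IVF females, where 2.19% of all genes were. Their summed level was 161 to 254 CPM in IVF males and 343 to 533 CPM in IVF females. In natural animals it was 274 to 289 CPM in males and 348 to 504 CPM in females, with 0 of 8 called. Lymphocyte markers (7 genes) summed to 7.01 to 8.46 CPM in natural males against 16.2 to 21.2 in natural females with none called, and to 5.75 to 9.88 in IVF males against 15.4 to 23.8 in IVF females with 1 called. Stellate cell markers (7 genes, none called) summed to 169 to 243 CPM in natural males against 302 to 311 in natural females, and to 179 to 270 in IVF males against 322 to 357 in IVF females. The 8 hepatocyte markers, none called, summed to 85165 to 98859 CPM in natural males against 109278 to 119428 in natural females, and to 81817 to 89319 in IVF males against 113340 to 121541 in IVF females. No marker of these 4 cell types was at 0, and their part in the sex differences of the noncoding RNAs was not tested.

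**Figure D4:**
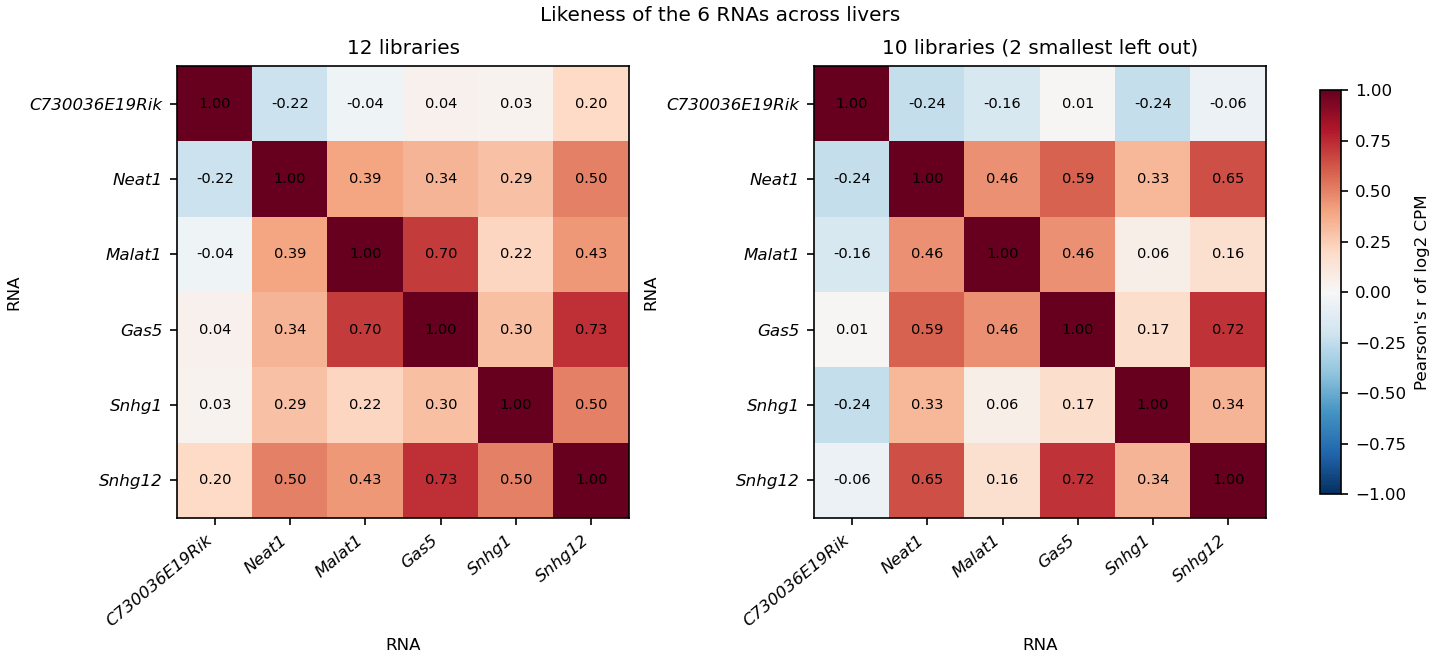
Cells give Pearson's r of log2 CPM between each pair of the 6 RNAs over 12 libraries (left) and over 10, without the 2 smallest (right), on a colour scale from -1 to 1. Gas5 and Snhg12 have r = 0.73 and 0.72, while C730036E19Rik has values between -0.24 and 0.20 with every other RNA.

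Among themselves, Gas5 and Snhg12 ran together most, with r = 0.73 over 12 libraries, 0.72 for deviations from group means and 0.72 without the 2 smallest libraries. Malat1 and Gas5 followed at 0.70, but this fell to 0.46 without those 2 libraries. Snhg1 and Snhg12 had r = 0.50 and Neat1 and Malat1, the genomic neighbours, 0.39. The median of the 15 pairs was 0.30. All pairs share library depth and base composition, so the values are descriptions.

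In a wider list of noncoding snoRNA host genes most fitted values were below 0 with IVF in females and above 0 with IVF in males. Beside Gas5, Snhg1 and Snhg12 it held 21 names, of which 19 were in the count table and 17 passed the filter. With IVF in females 1 of the 17 had a log2 fold change above 0 and the median was -0.52, against 47.8% of all genes above 0 and a median of -0.01. With IVF in males 15 of 17 were above 0 with a median of 0.35, against 51.6% and a median of 0.01. None of the 17 was called in either comparison by edgeR, with 0 of 17 in females and 2 of 17 in males at an unadjusted p under 0.05. Across all alternative settings the count above 0 ran from 1 to 2 in females and from 14 to 16 in males. The earlier results of these data were known when the list was made, and its genes share the same libraries, so the 17 are not separate observations.

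**Figure D5:**
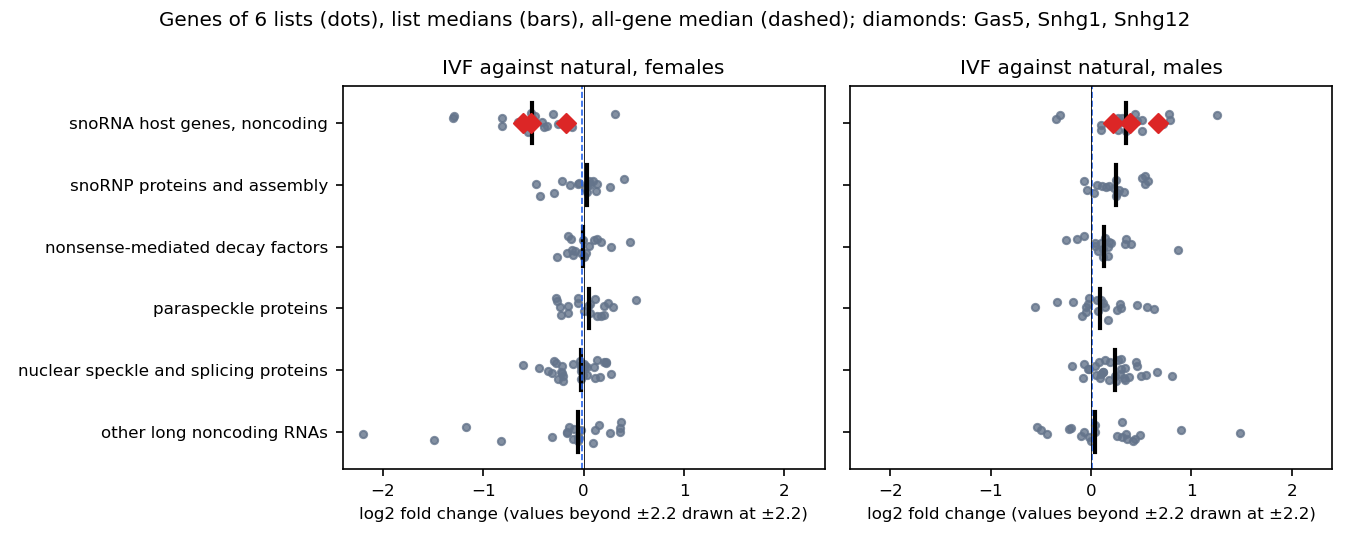
Dots are edgeR log2 fold changes of the tested genes of 6 lists in females (left) and males (right), black bars are list medians, the dashed line is the median of all genes, and red diamonds are Gas5, Snhg1 and Snhg12. Host genes centre on -0.52 in females and 0.35 in males, and the protein lists lie closer to 0 in females.

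Snhg17 and Epb41l4aos, 2 host genes of that list, were called between natural sexes (2 of 17 tested, against 1.77% of all genes). The list was mixed in this comparison: 7 of the 17 were above 0, against 47.9% of all genes, with a median of -0.35. At an unadjusted p under 0.05 by edgeR, 2 were higher and 5 lower in natural males, against 14.9% of all genes in either direction. Snhg17 had 2.60, 2.55 and 2.73 CPM in natural males against 5.13, 4.67 and 5.85 CPM in natural females, and fell by 0.99 on the log2 scale (SE 0.22, adjusted p = 0.0470, edgeR). Epb41l4aos had 2.47, 1.55 and 2.25 CPM against 4.65, 7.67 and 6.72 CPM, and fell by 1.59 (SE 0.29, adjusted p = 0.0178, edgeR). In both called genes every natural male lay below every natural female. Rian, on the same list, went the other way, with 12.6, 12.4 and 14.4 CPM in natural males against 3.69, 4.79 and 4.06 CPM in natural females. IVF males held 4.60, 5.22 and 3.70 CPM of Snhg17, above all 3 natural males, but the comparison did not pass (log2 fold change 0.78 ± 0.22, adjusted p = 1, edgeR).

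Lists of proteins that work with these RNAs had medians nearer 0 in females. Their counts above 0 in females moved with the setting: over the alternatives they ran from 6 to 11 of 17, from 6 to 13 of 18, from 6 to 14 of 20 and from 3 to 21 of 31 in the order given here, with the lowest of the last without natural female 1 and the highest without IVF female 3 or natural female 2. In males the ranges were 10 to 17, 9 to 16, 11 to 17 and 22 to 30. Of 17 snoRNP proteins and assembly factors, which bind and mature snoRNAs, 10 were above 0 with IVF in females (median 0.04) and 15 in males (median 0.24), with none called. Of 18 nonsense-mediated decay factors, 9 were above 0 in females (median 0.00) and 15 in males (median 0.13), with none called. Of 20 paraspeckle proteins, 12 were above 0 in each sex (medians 0.05 and 0.09), with none called. Pspc1, a core paraspeckle protein, had 5.41 ± 0.95 CPM in IVF males and 3.50 ± 0.15 in natural males (SD, n = 3), a log2 fold change of 0.63 ± 0.26 (SE) with adjusted p = 1 by edgeR. In females its log2 fold change was 0.52 ± 0.26. Ahdc1, on the same list, went the other way in males, at -0.56 ± 0.25 (adjusted p = 1, edgeR).

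Nuclear speckle and splicing proteins, the partners of Malat1, numbered 31, and 12 were above 0 with IVF in females (median -0.03) and 26 in males (median 0.24), with none called. Between natural sexes 1 of the 31 was called, where 1.77% of all genes were, so the count says nothing particular of the list. The gene was Srsf5, a splicing factor of the SR family. It had 61.3, 82.2 and 46.8 CPM in natural males against 141, 212 and 166 CPM in natural females, and fell by 1.45 on the log2 scale (SE 0.30, adjusted p = 0.0343, edgeR). IVF males had 72.3, 150 and 111 CPM of Srsf5 and overlapped natural males. Like Snhg12, Srsf5 was thus lowest in natural males, and its log2 fold change with IVF in males was 0.81 ± 0.30 (adjusted p = 1, edgeR).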

How the data were processed

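Liver RNA of 12 mice was poly-A selected and sequenced. The authors deposited raw read counts per gene symbol. Per the submitters' processing notes, Trimmomatic 0.32, STAR 2.3.0e, featureCounts 1.5.0 and build mm10 were used. The annotation, strand setting and treatment of multiply mapped reads are not given in the sources used here. Here edgeR 4.0.16 (R 4.3.3) kept 13204 genes with its filter by group, scaled by TMM and fitted 1 quasi-likelihood model to all 4 groups, with Benjamini-Hochberg adjustment over all genes and a threshold of 0.05. The fit was tested on simulated data. DESeq2 1.42.0, other scalings, no filter, a GC offset, a term for the 2 smallest libraries and leaving libraries out were alternatives. Ratios were tested by exact permutation (scipy 1.17.1). The text names all 6 RNAs, the nearest tested gene on either side, the 3 genes with highest r of log2 CPM (prior count 2, mean of at least 1 CPM), and up to 2 genes per list and comparison, called first, then by unadjusted p; 1 neighbouring gene is not reported here. Members and lists were chosen with earlier results of these data known. Symbols matched GENCODE M21 for 23813 of 24527, and synonyms for 337.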

Additional observations from a re-analysis of the deposited data

How the results depend on the processing

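Counts of called genes moved most with the tool. DESeq2 called 4 genes for IVF in females, 2 in males, 6 for the difference, 649 between natural sexes (234 by edgeR), 688 between IVF sexes (289) and 4 for the IVF effect averaged over both sexes (1). Scaling by total counts gave 510 between natural sexes. A term for the 2 smallest libraries gave 458 and 438 between natural and IVF sexes. A GC offset gave 0 for the average effect. Leaving out 1 library at a time gave 111 to 263 between natural sexes (lowest without natural male 3), 137 to 348 between IVF sexes (lowest without IVF male 3), and 0 to 1 both for males and for the average effect.

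Fold changes of the 6 RNAs that changed sign were all small in the first place, and the cause was not tested. Malat1 in females was 0.16 without the 2 smallest libraries. Between IVF sexes Malat1 was 0.23 with the term for the 2 smallest libraries, 0.10 without them and 0.079 with the GC offset, and Gas5 was 0.32, 0.25 and 0.093. Leaving out 1 library at a time gave C730036E19Rik in males -0.29 to 0.37. It gave Neat1 -0.15 to 0.061 in females and -0.22 to 0.69 between IVF sexes. It gave Malat1 -0.37 to 0.34 in females, -0.25 to 0.66 in males, -0.13 to 0.78 for the difference and -0.61 to 0.30 between IVF sexes. It gave Gas5 -0.51 to 0.32 in females and -0.27 to 0.25 between IVF sexes, and Snhg1 -0.024 to 0.44 in males and -0.25 to 0.16 between IVF sexes. The IVF effect averaged over both sexes was not followed RNA by RNA for sign or threshold. Over the alternatives, from 1 to 4 of the 5 RNAs other than C730036E19Rik were above 0 in it. The other fold changes that were followed kept their sign, apart from C730036E19Rik between natural sexes, a description that ran from -0.56 to 0.11. For C730036E19Rik the side of the threshold was followed only in males, where it never passed. The 5 others kept their side of the threshold, apart from the 6 calls between natural sexes given with Neat1, Snhg1 and Snhg12. No paired analysis was possible because the groups compared share at most 1 number in the sample titles (1 IVF female and 1 IVF male), too few for a block. Snhg1 and Snhg12 have between 27 and 188 counts in a library, which limits their precision.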

Other observations

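Other long noncoding RNAs were measured beside the 6. Of 40 listed names, 33 were in the count table and 21 passed the filter. Their medians were -0.06 for IVF in females and 0.04 in males, with none called in either. Between IVF sexes 2 of the 21 were called by edgeR, against 2.19% of all genes. Between natural sexes none was called, against 1.77% of all genes. Meg3, a maternally expressed imprinted RNA, had 23.8, 7.23 and 21.2 CPM in IVF males and 1.93, 1.58 and 4.27 CPM in IVF females, a log2 fold change of 2.70 ± 0.50 (SE, adjusted p = 0.0150, edgeR). Natural females had 4.97, 7.79 and 9.73 CPM of Meg3, above all 3 IVF females, and that comparison did not pass (-1.49 ± 0.49, adjusted p = 1, edgeR). Natural males had 13.2, 20.8 and 18.2 CPM of Meg3, a log2 difference from natural females of 1.22 ± 0.46 (adjusted p = 0.239, edgeR). Dleu2, host of the miR-15 family, had 5.97, 4.13 and 3.95 CPM in IVF males against 11.3, 12.1 and 15.004 in IVF females, and fell by 1.46 on the log2 scale (SE 0.27, adjusted p = 0.0143, edgeR). Natural males had 6.08, 7.74 and 6.05 CPM of Dleu2 and natural females 12.96, 19.7 and 10.8, a log2 difference of -1.12 ± 0.26 (adjusted p = 0.0559, edgeR). H19, another imprinted RNA, stood at 102 CPM in natural female 3 and at no more than 2.35 CPM in the other 11 livers, so its log2 value of -6.07 for IVF in females rests on 1 library.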
